A study of Mus musculus with 12 samples.

Results

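The 10 genes described here encode transcription factors of adipocyte formation, namely Pparg, Cebpa, Cebpb, Cebpd, Klf15, Ebf1, Ebf2, Zfp423, Rxra and Klf4. They were taken by gene symbol for their known roles in adipogenesis, with earlier results of these data known, and make up 10 of the 49315 genes in the count table. All 10 passed the filter on low counts, which left 18702 genes to be tested. RNA was sequenced from white adipose tissue, epididymal (eWAT) in the study's methods, of 12 male mice, with 3 mice in each of 4 groups and 1 library taken here as 1 mouse. Every mouse was fed a high-fat diet (60% fat) for 12 weeks. Control mice were Mir181a2b2 flox/flox (flox), in which the locus is flanked by recombination sites, and the others were Mir181a2b2-/- (KO), in which the microRNA genes Mir181a-2 and Mir181b-2 are deleted. The study describes the deletion as systemic. Its methods report age-matched males throughout and the use of cage-matched littermates, without naming these groups. Because the deletion is present in every tissue, the data cannot tell in which cell type, or in which organ, a difference between genotypes arose, and the KO mice keep the separate Mir181a-1/Mir181b-1 locus. Each genotype received either vehicle or the antifolate methotrexate (MTX), given as 1 mg/kg by weekly intraperitoneal injection.

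PPARγ is a nuclear receptor that binds DNA as a heterodimer with RXRα, and together with C/EBPα it maintains the gene program of the mature fat cell. C/EBPβ and C/EBPδ are induced early when precursor cells are stimulated to differentiate, and they act upstream of Pparg and Cebpa. KLF4 is an early factor that binds the Cebpb promoter, KLF15 acts later in differentiation, EBF1 and EBF2 act in committed precursors, and ZFP423 marks preadipocytes. Several of the factors are also used by other cells of fat, among them C/EBPβ in macrophages and KLF4 in fibroblasts, endothelium and myeloid cells. In bulk tissue, fewer cells of a type and less RNA per cell cannot be told apart.

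The mature microRNAs encoded by the deleted genes are shown because they define the genotype. Their RefSeq sequences are given 5′ to 3′ on GRCm38.p6, with the seed (bases 2 to 8) in capitals, and both genes lie on the plus strand, at chr2:38852741-38852763 for miR-181a-5p and chr2:38853845-38853868 for miR-181b-5p. Both carry the same seed.
miR-181a-5p: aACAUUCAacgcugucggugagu
miR-181b-5p: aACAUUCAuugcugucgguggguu

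A perfect match to the complement of the seed, TGAATGT, was looked for on the sense strand of the longest annotated 3′ untranslated region (3′UTR) of each of the 10 genes in GENCODE M21. Klf15 alone of the 10 held it, at position 748 of a 3′UTR of 950 bases. Of 20983 genes with an annotated 3′UTR, 16.3% held the same 7 letters, and of 2954 genes with a 3′UTR of like length 13.5% did. The match, in capitals, lies on GRCm38 chr6:90475025-90475053, plus strand.
Klf15 3′UTR: ttcacatcctaTGAATGTatgtaaataaa

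The members differ in how cleanly their reads can be assigned. Cebpb (chr2, 167688915 to 167690418) shares 312 exonic bases with Tmem189 on the opposite strand, a gene with 1590 to 3565 counts per library. Cebpd (chr16, 15887286 to 15891031) shares 562 exonic bases with Spidr, which had 106 to 231 counts, while the overlaps of Cebpa with Gm45091 (51 bases) and of Ebf2 with Gm10860 (424 bases, 0 to 5 counts) are smaller in bases or in reads. The strand setting of the counting is not given in the sources used here, so reads from these stretches cannot be told apart between partners. Pparg (chr6, 115360951 to 115490399) was counted as a whole gene, and its isoforms cannot be told apart. The other members lie on chr7 (Cebpa, 35119293 to 35121928), chr6 (Klf15, 90462576 to 90475238), chr11 (Ebf1, 44617317 to 45008091), chr14 (Ebf2, 67233292 to 67430918), chr8 (Zfp423, 87661810 to 87959595) and chr2 (Rxra, 27676440 to 27762957) of GRCm38. Klf4 lies on the minus strand of chr4 (55527143 to 55532466), and neither it nor the other 5 members shares exonic bases with another gene on the opposite strand in that annotation.

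The 12 libraries held 19495310 to 23976469 counts. Mir181a-2 had 0 counts in 11 of 12 libraries and 2 counts in flox MTX replicate 4, and Mir181b-2 had 0 counts in 12 of 12. A count of 0 allows 3 counts, or 0.125 to 0.154 CPM (a count scaled to the library total) by library, so the deletion could not be checked at this depth. The 3 flox vehicle libraries stood apart. Summed transcripts of 34 genes of the epididymis, the sperm duct beside this fat pad, came to 2932 to 22787 CPM in them and to 1032 CPM in flox MTX replicate 1, but to 12.3 to 68.5 CPM in the other 8 libraries. Germ cell transcripts (18 genes) summed to 292 to 710 CPM in flox vehicle libraries and to 17.0 to 50.2 CPM in the other 9. With the genes of both lists removed, the same 2 members were called under vehicle between genotypes and the same 2 in flox mice between treatments, with log2 differences of 1.58 and 0.65 and of 0.80 and 0.70 for Klf4 and Cebpb. Removing the listed genes leaves the counts of the members as they were. It therefore could not show what such tissue adds to them, and its part in the differences below was not tested.

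Per length of exonic sequence, Cebpa was the most abundant of the 10 transcripts, with a median over the 12 libraries of 236 CPM per kb (159 to 501). Cebpb followed at 52.5 CPM per kb, and Pparg (37.4), Rxra (32.0) and Klf4 (29.0) lay close together. Klf15, Ebf1, Cebpd and Zfp423 had medians between 8.90 and 15.4 CPM per kb. Ebf2, which is best known from brown and beige fat, was the lowest at 2.25 CPM per kb (1.44 to 3.97). Counts per library for the members ran from 254 for Ebf2 to 23749 for Cebpa, so every member was well above the counting floor in every mouse.

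Across the 4 groups the 10 factors did not share an order. By group mean, the highest level was in flox MTX mice for 8 members, in flox vehicle mice for Ebf2 and in KO vehicle mice for Klf4. The lowest was in KO MTX mice for 7 members and in flox vehicle mice for the early factors Cebpb, Cebpd and Klf4. The mean of the highest group exceeded that of the lowest by 1.33-fold for Ebf2 and by 2.99-fold for Klf4. For most members, neighbours in this order overlapped at every step. For Cebpb and Cebpd only the lowest step was clear, from flox vehicle to the next group. For Klf4, the KO vehicle mice were clear of KO MTX mice and flox MTX mice were clear of flox vehicle mice, while KO MTX and flox MTX mice overlapped.

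**Figure D1:**
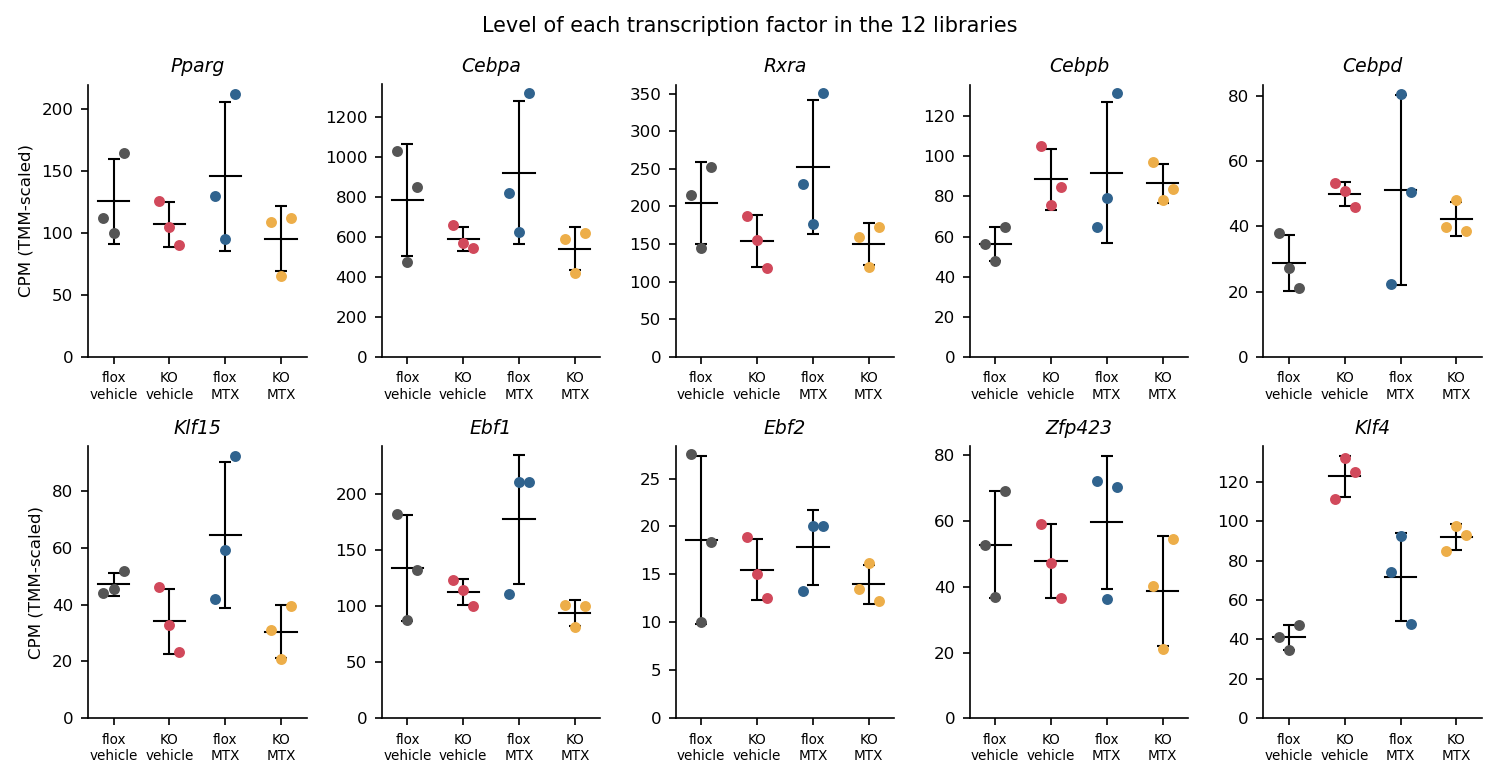
Level of each of the 10 transcription factors in CPM by group, with 1 point per mouse and a bar at the mean with its SD (n = 3). Klf4 is lowest in the 3 flox vehicle mice (34.4 to 47.3 CPM) and highest in the 3 KO vehicle mice (111 to 132 CPM), whereas for Pparg and Zfp423 the groups overlap.

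The comparison of KO with flox mice under vehicle asked how loss of the locus altered obese fat. Of the 10 factors, 2 rose by the rule used here (Benjamini-Hochberg adjusted p under 0.1 and at least a 1.5-fold difference in edgeR's quasi-likelihood test), namely Klf4 and Cebpb, and none fell. In this comparison 31.7% of all genes tested were called, 13.9% as higher and 17.8% as lower in KO mice. The 2 members called are therefore no larger a share than the background. Cebpd, the other early C/EBP factor, was higher in all 3 KO mice but missed the adjusted threshold, and the other 7 members had lower means in KO mice with no test passed.

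Klf4, a zinc finger factor that acts at the start of differentiation, showed the largest difference of the 10. It stood at 41.4, 34.4 and 47.3 CPM in flox replicates 1, 3 and 4 and at 111, 132 and 125 CPM in KO replicates 1, 2 and 3. Every KO mouse lay above every flox mouse, with a gap from 47.3 to 111 CPM. The rise was 2.99-fold (log2 1.58, SE 0.21, 95% interval 1.11 to 2.05, adjusted p = 0.00276), and the gene ranked 84 by p among all genes tested. The call held in each of 11 other settings and with each of the 12 libraries left out, with a log2 difference of 1.47 to 1.70 when a library was left out.

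Cebpb, whose product activates Pparg and Cebpa early in differentiation and is also made by macrophages, rose less. The flox mice had 56.5, 47.9 and 64.5 CPM and the KO mice 105, 75.8 and 84.7 CPM. The groups did not overlap, the gap being between 64.5 and 75.8 CPM. Cebpb was 1.57-fold higher in KO mice (log2 0.65, SE 0.24, 95% interval 0.12 to 1.18, adjusted p = 0.0645). This call was lost without flox replicate 1 (adjusted p = 0.13), flox replicate 3 (0.18), KO replicate 1 (0.16) or KO replicate 3 (0.12). Its antisense neighbour Tmem189 had a log2 difference of 0.37 with an adjusted p of 0.17 in the same test.

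Cebpd stood at 38.0, 27.3 and 21.0 CPM in flox mice and at 53.3, 50.8 and 45.9 CPM in KO mice. The groups did not overlap, and the KO mice lay closer together (SD 3.73 CPM) than the flox mice (SD 8.57 CPM). The log2 difference was 0.80 (SE 0.36) with an adjusted p of 0.12, and an exact permutation test over the 3 against 3 mice gave its smallest possible two-sided p of 0.1. Without flox replicate 1 the gene was called (log2 1.05, adjusted p = 0.0913), as it was without flox MTX replicate 1 (adjusted p = 0.0254) or 2 (0.04995), which are not part of the comparison and enter through the shared estimate of the spread. With every library of the comparison kept, Cebpd was called in 2 of 11 other settings. These were no filter on low counts and the 6 libraries of the comparison fitted alone. In all, 3 of the 10 members were clear of overlap, all higher in KO mice, where 48.1% of all genes were clear of overlap and 22.8% were so with KO mice higher.

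The factors of the mature fat cell did not pass the test under vehicle. Cebpa had 1030.5, 477 and 852 CPM in flox mice and 660, 569 and 544 CPM in KO mice, and Pparg had 112, 99.99 and 164 CPM against 126, 105 and 90.2 CPM. For both genes most KO values lay within the range of the flox values, so the groups overlapped. The log2 differences were −0.41 (SE 0.32, adjusted p = 0.37) for Cebpa and −0.23 (SE 0.31, adjusted p = 0.61) for Pparg. Rxra, the partner of PPARγ, had −0.41 (SE 0.29) and Klf15 −0.47 (SE 0.32), and the precursor factors Ebf1, Ebf2 and Zfp423 lay between −0.15 and −0.27. Klf15 had 44.2, 45.5 and 51.9 CPM in flox mice and 46.1, 32.9 and 23.3 CPM in KO mice, so that KO replicate 1 lay among the flox mice and the other KO mice below them. Ebf2 had means of 18.6 ± 8.76 CPM in flox and 15.5 ± 3.19 CPM in KO mice (SD, n = 3), and Zfp423 had 52.9 ± 16.2 against 47.8 ± 11.3 CPM. These differences were smaller than the spread of the flox mice. The median log2 difference over the 10 members was −0.24, against −0.056 over all genes tested.

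The promoters of the 2 called members are shown with the GC boxes that they share. The 250 bases before the RefSeq start site were searched on both strands for the GC box (GGGCGG or its complement CCGCCC, in capitals, bound by the Sp/KLF family), the TATA box (TATAAA), the CCAAT box, the cyclic AMP element (TGACGTCA), a C/EBP motif (TTNNGNAA) and a STAT motif (TTCNNNGAA). On GRCm38.p6 the windows are chr4:55532476-55532725, minus strand, and chr2:167688665-167688914, plus strand.
Klf4 promoter: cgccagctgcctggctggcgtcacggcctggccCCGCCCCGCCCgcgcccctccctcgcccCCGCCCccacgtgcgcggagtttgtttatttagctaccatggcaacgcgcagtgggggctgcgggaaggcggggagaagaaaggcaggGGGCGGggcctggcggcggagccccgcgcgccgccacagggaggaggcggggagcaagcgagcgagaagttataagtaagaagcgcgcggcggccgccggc
Cebpb promoter: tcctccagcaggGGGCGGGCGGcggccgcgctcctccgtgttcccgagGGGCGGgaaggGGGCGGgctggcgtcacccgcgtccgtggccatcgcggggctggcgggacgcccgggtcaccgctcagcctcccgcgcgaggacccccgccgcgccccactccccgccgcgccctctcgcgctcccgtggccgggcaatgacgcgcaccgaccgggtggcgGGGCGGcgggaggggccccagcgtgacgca

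The Klf4 window held 4 GC boxes and the Cebpb window 5, and in each window some boxes run into one another. None of the other 5 motifs was matched in either window. Among 32851 promoters of this length 32.7% held at least 1 GC box, and 36.8% held the C/EBP motif, so both are common sequences. Members that were not called also held GC boxes, at 2 of 3 listed starts of Pparg, 1 of 1 of Klf15, 2 of 2 of Zfp423 and 1 of 2 of Rxra. The listed starts of Cebpa and Ebf1 held none, and Cebpd and Ebf2 had no listed start. The matches describe letters only.

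**Figure D2:**
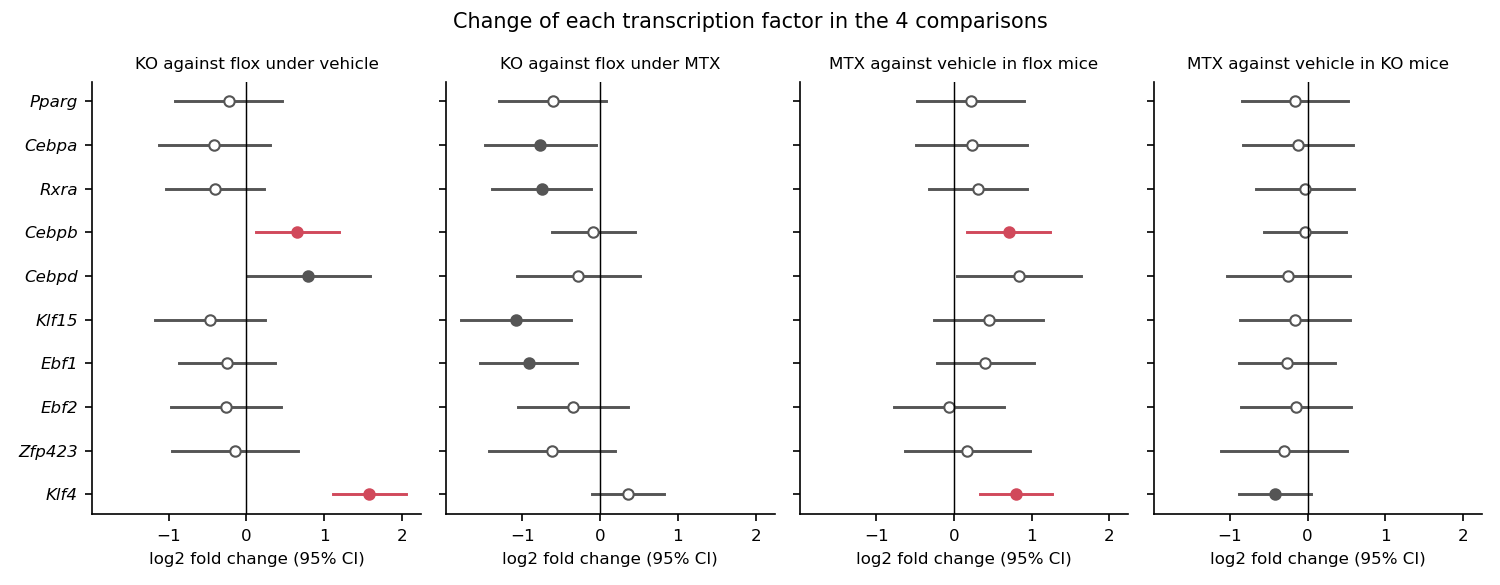
Log2 difference of each factor in the 4 comparisons between groups, with bars for the 95% interval of edgeR's quasi-likelihood fit, red for genes called and filled points where the mice of both groups do not overlap. Klf4 and Cebpb are called for genotype under vehicle and for MTX in flox mice, and no member is called in the other comparisons.

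The same comparison of genotypes was made among MTX-treated mice. The mean of 9 of the 10 factors was lower in KO than in flox mice, and Klf4 was the exception. Of all genes 46.2% had a higher fitted level in KO mice. No member was called, and no gene of the 18702 was (0 percent, lowest adjusted p 0.104), although 4 of the 10 members had an unadjusted p under 0.05, all of them lower in KO mice. Among all genes 24.5% had such a p, and 12.9% had it with KO mice lower. DESeq2, run on the same 12 libraries, called 2734 genes including those 4 members.

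Klf15 is a zinc finger factor that acts in late differentiation and on the glucose transporter gene Slc2a4. It had 41.9, 59.3 and 92.2 CPM in flox MTX replicates 1, 2 and 4 and 31.0, 20.8 and 39.6 CPM in KO MTX replicates 2, 3 and 4. The groups did not overlap, but the gap between 39.6 and 41.9 CPM was small beside the spread among flox MTX mice. KO mice were 2.12-fold lower (log2 −1.08, SE 0.32, 95% interval −1.79 to −0.37), with an adjusted p of 0.11 in edgeR and 0.0218 in DESeq2. Klf15 is the member with the match to the miR-181 seed, which 13.5% of genes with a 3′UTR of like length also held. Its fitted difference was lower in KO mice under vehicle as well (log2 −0.47, not called). A link between the match and the level of Klf15 was not tested.

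Ebf1, a factor of committed precursors and mature fat cells, had 111, 211 and 211 CPM in flox MTX mice and 101, 81.1 and 99.9 CPM in KO MTX mice. The KO mice lay closer together and below all 3 flox mice. The log2 difference was −0.92 (SE 0.28), with an adjusted p of 0.11 in edgeR and 0.0269 in DESeq2. Rxra and Cebpa showed the same arrangement. Rxra had 230, 177 and 351 CPM against 159, 119 and 172 CPM (log2 −0.75, SE 0.29, adjusted p = 0.15), and Cebpa had 823, 624 and 1320.1 CPM against 588, 418 and 619 CPM (log2 −0.77, SE 0.33, adjusted p = 0.18). For both genes, flox MTX replicate 4 was far above its group and KO MTX replicate 3 was the lowest of its group.

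These 4 members were clear of overlap between genotypes under MTX, where 26.8% of all genes were and 12.1% were so with KO mice lower. Pparg (log2 −0.61, adjusted p = 0.25) and Zfp423 (−0.63, adjusted p = 0.31) had differences of similar size with overlapping groups. Cebpd (−0.28), Ebf2 (−0.35) and Klf4 (0.36) had smaller ones, and for Cebpb the difference was −0.087 and became 0.11 when libraries were scaled by size alone. The median over the 10 was −0.62, against −0.045 over all genes. Flox MTX replicate 2 weighed on the calls: without it Pparg, Cebpa, Klf15 and Rxra were called as lower (adjusted p = 0.0851, 0.0656, 0.0601 and 0.0506) and Klf4 as higher (0.072). Without flox vehicle replicate 3, Ebf1 was called (adjusted p = 0.0976). These changes were not particular to the members. Genes called in all rose from 0 to 4064 without flox MTX replicate 2 and to 1028 without flox vehicle replicate 3.

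The comparison of MTX with vehicle in flox mice asked what the drug did where the locus was intact. It shares the flox vehicle libraries with the comparison of genotypes under vehicle. Klf4 and Cebpb rose, and the other 8 members were not called. Of all genes 24.2% were called, 8.09% as higher and 16.1% as lower with MTX, and 2 of the 10 members is again not a larger share than the background.

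Klf4 had 74.4, 92.4 and 48.0 CPM in flox MTX replicates 1, 2 and 4, against the 34.4 to 47.3 CPM of flox vehicle mice. The groups were clear of each other, although flox MTX replicate 4 lay only just above flox vehicle replicate 4. The rise was 1.74-fold (log2 0.80, SE 0.21, 95% interval 0.34 to 1.27, adjusted p = 0.0248), and without flox vehicle replicate 3 the adjusted p was 0.11. Cebpb had 64.7, 79.4 and 132 CPM, with replicate 1 just above the highest vehicle mouse at 64.5 CPM. It rose 1.63-fold (log2 0.71, SE 0.24, 95% interval 0.17 to 1.24, adjusted p = 0.0636). The adjusted p of Cebpb rose past the threshold when flox MTX replicate 4 was left out (0.20), as it did for either of vehicle replicates 1 (0.13) and 3 (0.21). Both calls were also lost with the replicate number as a block (adjusted p = 0.11 for Klf4 and 0.13 for Cebpb) and with the 6 libraries of the comparison fitted alone (0.14 and 0.19). They were lost too when libraries were scaled by size alone, where the log2 differences were 0.64 for Klf4 and 0.49 for Cebpb and the median of all genes moved from 0.051 to −0.15. These 2 members were the ones clear of overlap, where 28.3% of all genes were and 10.9% were so with MTX higher.

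Cebpd varied widely under MTX, with 22.4, 80.5 and 50.5 CPM in flox MTX replicates 1, 2 and 4. Replicate 1 lay within the vehicle range and replicate 2 was the highest value of the gene in any mouse. The log2 difference was 0.83 (SE 0.36, adjusted p = 0.13), and without flox MTX replicate 1 the gene was called (log2 1.19, adjusted p = 0.0163). Klf15 (0.45), Ebf1 (0.41), Rxra (0.31), Cebpa (0.23), Pparg (0.22) and Zfp423 (0.17) had positive differences that did not pass the test, and Ebf2 had −0.065. The signs for Pparg and Zfp423 turned with scaling by size alone (−0.020 and −0.052). The median over the 10 was 0.36.

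In KO mice no member was called for MTX against vehicle, and edgeR called no gene at all (0 percent, lowest adjusted p 0.293). None of the 10 had an unadjusted p under 0.05, where 7.97% of all genes did, and DESeq2 called 275 genes and none of the 10. Klf4 had 84.7, 97.5 and 93.2 CPM in KO MTX mice against 111, 132 and 125 CPM in KO vehicle mice (log2 −0.42, SE 0.21, adjusted p = 0.66). Its groups were nevertheless clear of each other, with every MTX mouse lower, as were those of 9.55% of all genes. The other 9 differences lay between −0.03 and −0.30 and their groups overlapped.

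The interaction asks whether the response to MTX differed between genotypes. All 10 fitted interactions were negative, meaning a smaller or more negative difference with MTX in KO than in flox mice, with a median of −0.55 against −0.051 over all genes. Of all genes 46.4% had a positive interaction. With libraries scaled by size alone 9 of the 10 were negative, and several members rise and fall together across libraries, so their signs are not independent. Klf4 had the largest, at −1.22 (SE 0.30, 95% interval −1.87 to −0.57), with an unadjusted p of 0.00169 and an adjusted p of 0.11, and was not called. It was the only member with an unadjusted p under 0.05, where 15% of all genes had one and 5.45% had one with a negative interaction. Of all genes 0.989% were called. DESeq2 called Klf4 (−1.21, adjusted p = 0.0105), and edgeR called it when replicate 4 of flox MTX (−1.46, adjusted p = 0.0932) or of flox vehicle (−1.34, adjusted p = 0.0524) was left out. Cebpd (−1.08, adjusted p = 0.35) and Cebpb (−0.74, adjusted p = 0.34) followed. Klf4 was the only member whose mice were clear of overlap for MTX in both genotypes, and in opposite directions, an arrangement found in 0.471% of genes.

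The other genes of the pathway were read from lists of activators of adipogenesis, repressors, and target genes of the factors. Under vehicle, 7 of 27 activators (25.9%) were called between genotypes, where 31.7% of all genes were. Klf6 (log2 1.06) and Klf9 (0.86), both relatives of Klf4 and Klf15, rose in KO mice, and Srebf1 (−1.50), which drives lipid synthesis genes, Klf5 (−1.42), Stat5a (−1.28), the coactivator Ncoa2 (−1.07) and Ppargc1a (−0.94) fell. Between genotypes under MTX, Klf5 (−0.18) and Ncoa2 (−0.14) differed less. Srebf1 (−1.07), Stat5a (−0.63) and Ppargc1a (−1.51) had larger differences there, and none of these genes was called. Among 23 repressors 9 (39.1%) were called, 7 of them higher, including Klf2 (1.52), which represses Pparg, Gata2 (0.88) and Klf7 (0.66), while Gata3 (−3.54) and Sox9 (−0.91) fell. The medians were −0.02 for activators and 0.25 for repressors.

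Of 26 target genes of PPARγ and C/EBPα, 7 (26.9%) were called under vehicle, so all 3 lists lay near the share of all genes. The lipid droplet coat gene Plin2 (1.86) and the fatty acid binding protein gene Fabp5 (1.37) rose, and both are also made by macrophages that take up lipid. Among those that fell were glycerol kinase Gk (−2.54), Pck1 (−2.29), the insulin-regulated glucose transporter gene Slc2a4 (−1.28) and Insr (−0.70). The median of the targets was −0.40. Under MTX none of the 3 lists held a called gene. Slc2a4 had −1.98 and Insr −0.71 there, both with an adjusted p of 0.104, as had the activators Ppargc1a (−1.51) and Nfia (−0.85), which binds beside EBF and PPARγ sites. At an unadjusted p under 0.05, 10 targets, 7 activators and 4 repressors were lower in KO MTX mice and 1, 1 and 3 were higher. Of all genes 24.5% had such a p, and 12.9% had it with KO mice lower. DESeq2 called 10 targets, 6 activators and 2 repressors as lower and 1 of each list as higher. EdgeR without flox MTX replicate 2 called 16 targets, 6 activators and 1 repressor as lower and 0, 3 and 2 as higher. Genes called in all numbered 2734 with DESeq2 and 4064 without that replicate, so the counts in the lists rose along with those of all genes.

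In flox mice, MTX changed 3 genes of each list (11.1% of activators, 13% of repressors and 11.5% of targets), where 24.2% of all genes were called. Klf9 (0.60) and Klf6 (0.68) rose and Ncoa2 (−0.59) fell among the activators. Klf2 rose (1.18) and Sox9 (−2.16) and Gata3 (−2.98) fell among the repressors, and Plin2 (1.22) and Fabp5 (1.13) rose and Gk (−2.43) fell among the targets. Gata3 and Gk had their highest means in flox vehicle mice, at 21.0 ± 15.5 and 127 ± 90.3 CPM (SD, n = 3). Means in KO vehicle, flox MTX and KO MTX mice were 1.80, 2.65 and 2 CPM for Gata3. For Gk they were 21.8, 23.4 and 25.8 CPM. Ncoa2 was also highest in flox vehicle mice, at 74.4 CPM, against 35.4, 49.5 and 44.9 CPM in the same order. Klf5 had a log2 difference of −1.35 with MTX in flox mice that was not called (adjusted p = 0.11). The differences of these genes here and between genotypes under vehicle share the flox vehicle libraries. Those libraries held the epididymal and germ cell transcripts, whose part was not tested. In KO mice edgeR called no gene of the 3 lists. At an unadjusted p under 0.05 there were 4 activators, 4 repressors and no target, where 7.97% of all genes had such a p. DESeq2 called 1 repressor, among 275 genes in all.

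**Figure D3:**
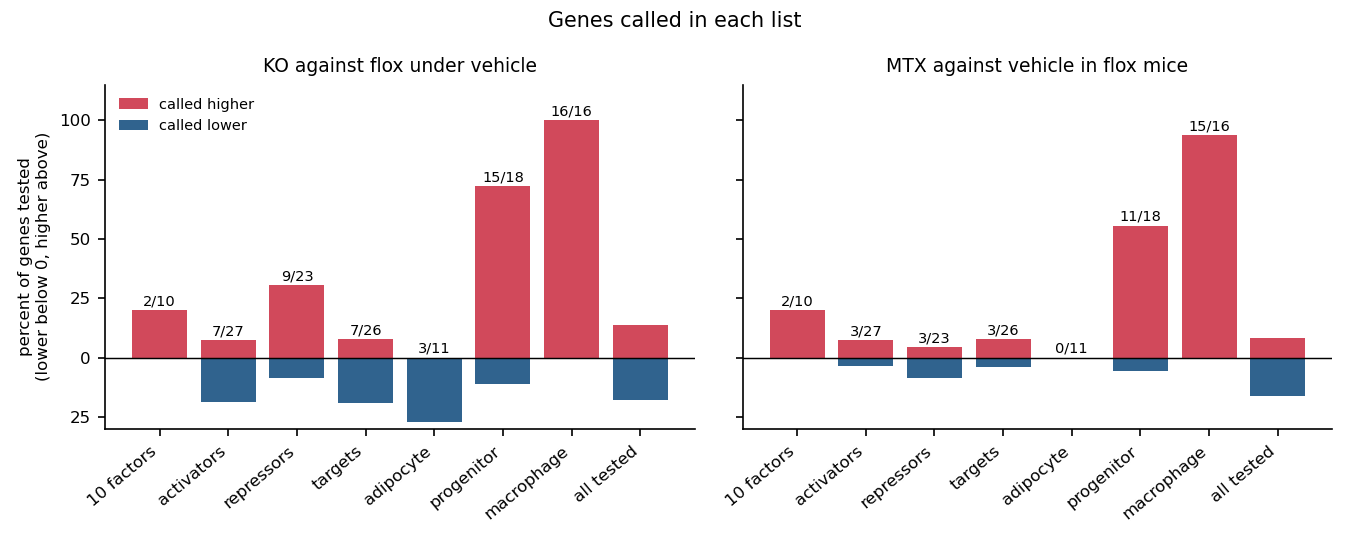
Percent of the genes tested in each list that were called higher (above 0) or lower (below 0), for genotype under vehicle and for MTX in flox mice, with the number called over the number tested above each bar and all genes tested at the right. Under vehicle the 16 macrophage markers are all called as higher in KO mice and 13 of 18 progenitor markers are, while 7 of 9 calls among repressors are higher and the calls among activators, targets and adipocyte markers are mainly lower.

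Markers of the cell types of fat moved with the same groups, and their part in the differences of the 10 factors was not tested. Summed adipocyte markers (11 genes, none at 0 in any library) ranged from 22145 to 56654 CPM in flox vehicle mice, 19144 to 34851 CPM in KO vehicle mice, 34858 to 72489 CPM in flox MTX mice and 10071 to 25817 CPM in KO MTX mice. Under vehicle 3 of these 11 genes fell in KO mice, Cfd (−3.13), Adrb3 (−2.49) and Retn (−1.87), where 17.8% of all genes were called lower. Under MTX edgeR called none of the 11. At an unadjusted p under 0.05 there were 8, all lower, where 12.9% of all genes were. DESeq2 called 9, all lower, among 2734 genes in all. Fabp4, the most abundant of the list, had 6547 to 17201 CPM in flox vehicle, 10814 to 15449 CPM in KO vehicle, 12573 to 22107 CPM in flox MTX and 5180.1 to 12029 CPM in KO MTX mice, with a log2 difference between genotypes of 0.015 under vehicle and −0.93 under MTX, neither of them called. Summed progenitor markers (18 genes) ran from 2734 to 4912 CPM, 8452 to 12943 CPM, 5045 to 7891 CPM and 8841 to 10690 CPM in the same order. Under vehicle 13 of these 18 rose in KO mice, among them Lum (2.52), Col1a1 (2.07), Cd34 (1.13) and Pdgfrb (1.10), and Dpp4 (−0.96) and Cd24a (−2.53) fell. Cd24a averaged 70.6 CPM in flox vehicle mice and 12.2, 17.65 and 12.7 CPM in KO vehicle, flox MTX and KO MTX mice. Col3a1 was the most abundant of this list and Lyz2 of the macrophage list. Summed macrophage markers (16 genes) ran from 679 to 1327 CPM in flox vehicle mice and from 4821 to 7957 CPM in KO vehicle mice, and all 16 rose, with a median log2 difference of 2.74. Markers of endothelium, which also makes KLF4, rose for 10 of 12 genes under vehicle (median 1.20), among them Pecam1 (1.20) and Cdh5 (1.20). With MTX in flox mice, 15 of 16 macrophage markers and 10 of 18 progenitor markers rose, no adipocyte marker was called, and of the 12 endothelial markers none was called or had an unadjusted p under 0.05, nor did DESeq2 call any of either list. Without flox MTX replicate 2, the macrophage and progenitor markers that rose numbered 8 and 5.

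**Figure D4:**
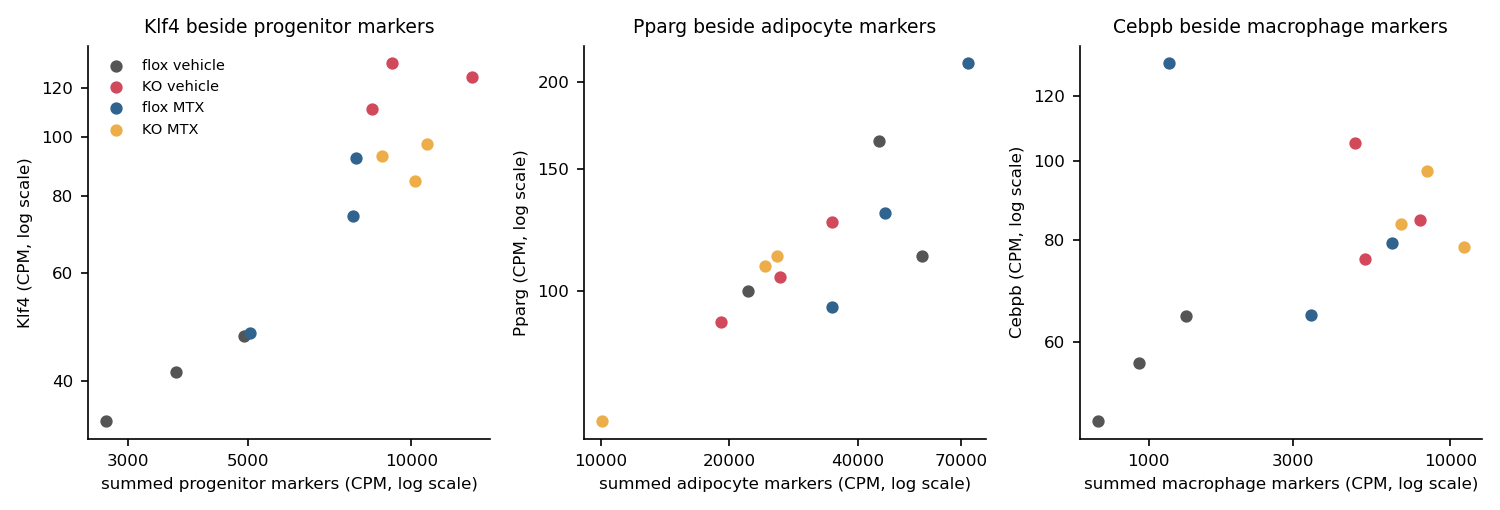
Klf4 against summed progenitor markers, Pparg against summed adipocyte markers and Cebpb against summed macrophage markers, each in CPM on log axes with 1 point per mouse coloured by group. KO MTX replicate 3 has the lowest adipocyte sum (10071 CPM) and the lowest Pparg (65.1 CPM), and flox MTX replicate 4 has the highest Cebpb (132 CPM) with a macrophage sum of 1171 CPM, within the flox vehicle range.

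Relative to the progenitor sum of the same library, Klf4 differed little between genotypes. The log2 ratio was 0.14 higher in KO than in flox mice under vehicle (SD of the mice about their group means 0.25) and 0.14 lower under MTX (SD 0.17), or 0.28 and 0.025 higher without Col3a1 in the sum. The other 9 factors were lower by this measure under vehicle, from −0.61 for Cebpd to −1.97 for Klf15, and 8 of the 10 members were clear of overlap in that direction. The same was true of 78.5% of all genes tested, and the progenitor sum itself differed by 1.45 on the log2 scale.

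Relative to the adipocyte sum, all 10 factors were higher in KO mice. Under vehicle the log2 difference ran from 0.04 for Klf15 to 2.15 for Klf4, and 5 members were clear of overlap as higher, where 18.2% of all genes were. Fabp4 weighed on these values, and without it in the sum the range was 0.51 to 2.62 and 9 members were clear as higher, where 30.4% of all genes were. Under MTX it ran from 0.35 to 1.81, and 6 members were clear as higher, where 64.3% of all genes were. Pparg, the defining receptor of the fat cell, was 0.35 higher under vehicle (SD 0.46) and 0.83 higher under MTX (SD 0.23) by this measure, overlapping and clear of overlap in turn. Without Fabp4 the values were 0.82 (SD 0.51) and 1.12 (SD 0.31), both clear. The adipocyte sum itself differed by −0.56 under vehicle and −1.41 under MTX.

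**Figure D5:**
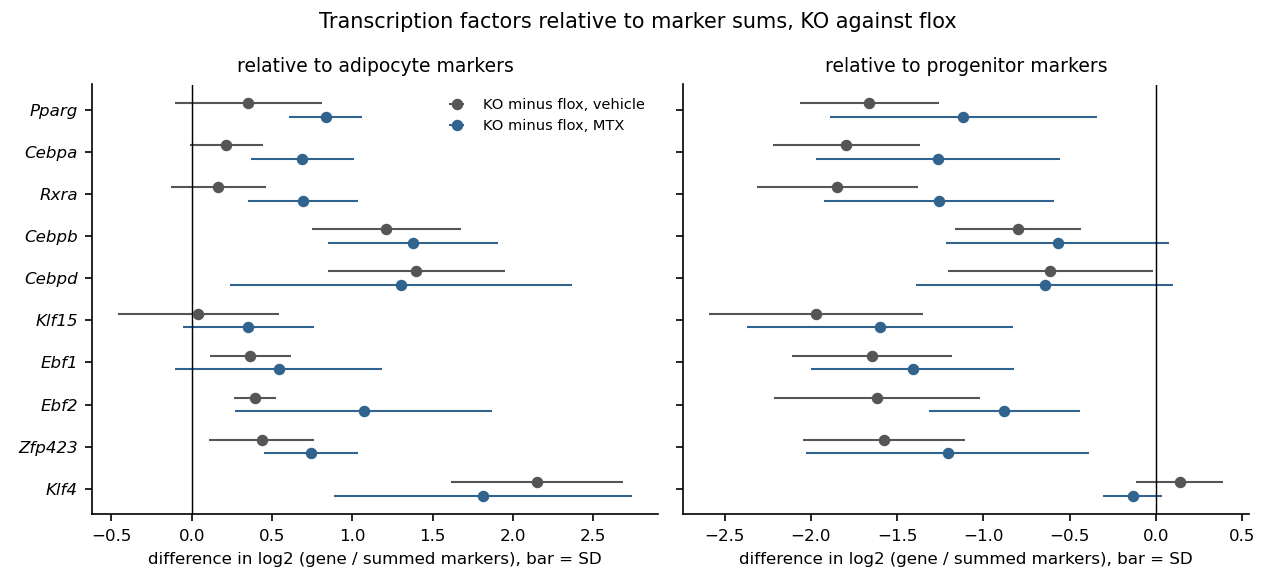
Log2 difference between KO and flox mice in each factor relative to the summed adipocyte or progenitor markers of the same library, under vehicle and under MTX, with bars for the SD of the mice about their group means. Every factor is above 0 relative to the adipocyte sum, and Klf4 alone stays near 0 relative to the progenitor sum while the other 9 lie below it.

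Ratios between members were taken within each mouse as a description. They are ratios of bulk tissue, where other cells of fat also make Cebpb and Klf4, and the part of cell makeup was not tested. The ratio of Cebpb to Cebpa CPM was 0.077 ± 0.0229 in flox vehicle mice, 0.149 ± 0.0142 in KO vehicle mice, 0.102 ± 0.0245 in flox MTX mice and 0.163 ± 0.0263 in KO MTX mice (SD, n = 3). Klf4 to Klf15 was 0.869 ± 0.0989, 3.93 ± 1.48, 1.28 ± 0.671 and 3.26 ± 1.25 in the same order, so both ratios were highest in the KO groups. Rxra to Pparg was 1.63 ± 0.247, 1.43 ± 0.0978, 1.76 ± 0.108 and 1.61 ± 0.196.

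Across the 12 libraries, the members fell into patterns that are given here as description, since the points share groups, depth and cell makeup. Rxra followed Cebpa (Pearson r = 0.937) and Pparg (r = 0.925) in log2 CPM, and Zfp423 followed Pparg (r = 0.895). Klf4 followed neither group, with r = 0.533 to Cebpd and −0.548 to Klf15. Among 15506 genes, those most like Klf4 were Scarf2 (0.993), Ctla2b (0.98) and Selenom (0.976), and among those most like Pparg were Ppp2r5a (0.971) and Hspa12a (0.965). Cebpa was most like Fam126b (0.976), Flad1 (0.976) and Trap1 (0.975), and Rxra most like Ehd2 (0.982), Heph (0.981) and the lipid phosphatase gene Lpin1 (0.979). Zfp423 lay nearest Gm32200 (0.973), Hacd2 (0.971) and Prkce (0.968), Klf15 nearest Npdc1 (0.969), Cdsn (0.953) and Hykk (0.953), and Ebf1 nearest Nfia (0.955), Rtl8c (0.952) and Gm14597 (0.947). The early C/EBP factors had looser neighbours, Eif1 (0.908), Ctnna1 (0.901) and Snapin (0.891) for Cebpb and Gm10478 (0.946), the NF-κB inhibitor gene Nfkbia (0.904) and Gm43813 (0.901) for Cebpd. Ebf2, the least abundant member, had the loosest, with Parp16 (0.869), Gsn (0.863) and Hoxa7 (0.86).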

How the data were processed

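RNA-seq libraries from 12 mice were compared, 3 per group. The authors deposited a table of raw read counts per gene for all samples. Per the labels and the submitters' processing notes, reads were trimmed with Trimmomatic 0.36, aligned with STAR 2.5.2b to GRCm38 and counted with featureCounts of Subread 1.5.2. The strand setting is not given in the sources used here. The labels name polyA RNA and the methods ribosomal depletion, which differ in which transcripts they capture. No count column was left without a sample.

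Genes were filtered with filterByExpr, scaled with TMM and fitted in edgeR 4.0.16 (R 4.3.3) as 1 quasi-likelihood model over the 12 libraries, with group as the factor and p-values adjusted by Benjamini-Hochberg. Genes were called at an adjusted p under 0.1 with at least a 1.5-fold difference. Levels are TMM-scaled CPM, so they are relative to all RNA in a library. Intervals cover 95%. DESeq2 1.42.0, other filters and scalings, a replicate block and leaving out each library were alternatives. Named genes of the pathway lists were up to 4 called genes per list by p, or those of lowest p where none was called, beside others named after their values were seen. Marker sums add the CPM of a list. The model was tested on simulated data in which 200 of 18702 genes differed 4-fold, far fewer than were called between genotypes under vehicle. It called 138 of the 200, all in the right direction, and 13 unchanged genes. A gene that was not called may therefore still differ. The 10 members and all lists were chosen with earlier results of these data known. Same-numbered libraries of different groups showed no clear shared deviation, which does not exclude a pairing. Some genes that the naming rule picks are not reported here.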

Additional observations from a re-analysis of the deposited data

Results flagged for a closer look

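Klf4 stood out because its levels in MTX and vehicle mice were arranged in opposite directions in the genotypes. All 3 flox MTX mice lay above all 3 flox vehicle mice, while all 3 KO MTX mice lay below all 3 KO vehicle mice, a difference that was not called (log2 −0.42, adjusted p = 0.66). The gap in flox mice was narrow, with MTX replicate 4 at 48.0 CPM just above vehicle replicate 4 at 47.3 CPM. The difference between the responses, tested as the interaction of genotype and MTX, was −1.22 on the log2 scale, with an adjusted p of 0.11 in edgeR's quasi-likelihood test, which misses the threshold. Klf4 was flagged by this arrangement, so how rare it is describes the gene and does not test it. It was found in 1 of the 10 factors and in 0.471% of genes tested. The call of Klf4 in flox mice was lost with the replicate block, with the 6 libraries alone and with scaling by library size. It rests on flox vehicle libraries that held epididymal and germ cell transcripts, whose part was not tested.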

How the results depend on the processing

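Members called under vehicle numbered 2, and 1 with a log2 difference of at least 1.5 or at an adjusted p under 0.05. They numbered 3 with no filter or with the 6 libraries alone, where Cebpd was called too. Under MTX they numbered 0, and 4 with DESeq2, 1 with no filter and 2 where every library had to hold 10 counts. For MTX in flox mice they numbered 2, and 0 with scaling by library size alone, with the replicate block, with the 6 libraries alone or at a log2 difference of 1.5, and 1 at an adjusted p under 0.05. For the interaction they numbered 0, and 1 with DESeq2 or with no filter. Leaving out 1 library gave 1 to 3, 0 to 5, 0 to 3 and 0 to 1 members for these comparisons, and 0 for MTX in KO mice. Signs turned for Zfp423 under vehicle with the replicate block (0.089), Cebpb under MTX by library size (0.11) or with the block (0.0025), Pparg (−0.020) and Zfp423 (−0.052) for MTX in flox mice by library size, and Ebf2 in the interaction by library size (0.081) or with the block (0.053). With 1 library left out, log2 differences that crossed 0 ranged under vehicle from −0.48 to 0.034 (Ebf1), −0.57 to 0.13 (Ebf2), −0.37 to 0.020 (Pparg) and −0.35 to 0.10 (Zfp423), and under MTX from −0.62 to 0.21 (Cebpd) and −0.26 to 0.27 (Cebpb). For MTX in flox mice they ranged from −0.37 to 0.33 (Ebf2), −0.11 to 0.48 (Cebpa), −0.030 to 0.44 (Zfp423) and −0.15 to 0.47 (Pparg), and in KO mice from −0.13 to 0.099 (Cebpb), −0.39 to 0.10 (Klf15), −0.28 to 0.0045 (Ebf2), −0.19 to 0.12 (Rxra), −0.30 to 0.049 (Pparg) and −0.23 to 0.031 (Cebpa). In the interaction Ebf2 ranged from −0.48 to 0.22. The cause was not tested. Genes called in all numbered 5924 under vehicle (3026 at log2 1.5), 0 under MTX (2734 with DESeq2, 875 with no filter, 1491 with 10 counts, 4 with the 6 libraries alone), 4528 for MTX in flox mice (2198 with 10 counts, 2771 with the block, 2167 with the 6 libraries alone, 2791 at log2 1.5), 0 in KO mice (275 with DESeq2, 20 with no filter, 3 with the 6 libraries alone) and 185 for the interaction (1232 with DESeq2, 472 with no filter, 1 with 10 counts, 0 with the block, 33 at an adjusted p under 0.05, 119 without the genes of epididymis and germ cells). With 1 library left out they ranged from 4640 to 6828, 0 to 4064, 2219 to 5995, 0 to 215 and 5 to 1371. Scaling by library size alone moved the median log2 difference of all genes from −0.045 to 0.12 under MTX, 0.051 to −0.15 for MTX in flox mice and −0.051 to 0.13 for the interaction, and the share of higher calls for MTX in flox mice from 33.4% to 17.5%. Over 12 pairs of same-numbered libraries the median correlation of deviations was 0.0353 (−0.273 to 0.254), against 0.0112 over 42 other pairs. No pairing by number was seen, but 3 libraries per group cannot exclude one.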

Other observations

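Markers of 2 cell types not described above also differed between groups. In flox mice MTX changed 9 of 10 mesothelial markers, 8 of them higher, among them Upk3b (log2 1.90) and Msln (1.78), and it raised 6 of 9 B cell markers, including Cd79a (2.63), or 1 of 9 without flox MTX replicate 2. Cd22, the most abundant B cell marker, had 4.58, 65.3 and 20.8 CPM in the flox MTX mice and 2.20 to 8.11 CPM in the flox vehicle mice. Under vehicle 2 mesothelial markers rose and 1 fell in KO mice, and no B cell marker was called, with an unadjusted p under 0.05 in 0 of 9.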
